A study of Mus musculus with 6 samples.

Results

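The genes described here lie on mouse chromosome 1 upstream of Tmem63a, the gene that encodes OCaR1 (the labels do not pair the names; the pairing is general knowledge). Members are the rows of the deposited gene table with status OK whose interval starts between 170000000 and a point 42.3 kb before the start of Tmem63a (GRCm38, the build named in the submitters' processing notes). They number 79 of the 11478 tested rows in all; 1 further row of the stretch was not tested, and 617 tested rows lie elsewhere on chromosome 1. Members were chosen by position and test status, and the stretch itself was selected on measured values, the FPKM fold changes and calls of this same comparison. Every level, fold change and call below is therefore a description, and nothing is read from how many members were called.

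RNA was sequenced from the pancreas of 3 male wild-type mice (C57Bl6/N in the protocol) and 3 male OCaR1-/- mice, all 3 weeks old and untreated. Under strain, the labels list C56Bl6/N for knockout and wild type alike. How the null allele was made, the stem cells used and the number of backcrosses were not stated in the labels, so what chromosome 1 sequence the knockout mice carry around the allele is not known from them. Pairs of values joined by "against" give the knockout first. The authors give 1 FPKM value per genotype (fragments per kilobase of transcript, a level scaled to gene length and library size), which combines 3 mice. No value of a single mouse, SD or n of its own can therefore stand beside a level, and depth is unknown. A gene is called where the q-value in the authors' deposited table is under 0.05; "rose" and "fell" are used for called genes only. The tissue label was checked against acinar genes: the trypsinogen gene Prss2 stood at 59529 FPKM in the knockout against 60473 FPKM in controls, and the carboxypeptidase gene Cpa1 at 21972 against 23509 FPKM. Acinar genes were not level between the genotypes: of 7 tested, 3 were called, all lower in the knockout (Ptf1a, 27.2 against 40.9 FPKM, Pnlip, 7662 against 15748 FPKM, and Cela1, 16591 against 37728 FPKM), and their summed level was 163169 against 185776 FPKM. In bulk tissue, fewer cells of a type and less RNA per cell cannot be told apart.

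Distal mouse chromosome 1 holds a pair of immune gene clusters. Low-affinity Fc receptors bind the constant part of antibodies on myeloid cells, B cells and mast cells: Fcgr3 encodes an activating receptor, Fcgr2b the inhibitory receptor, and Fcer1g the shared gamma chain through which activating receptors signal. The Ifi200 genes encode interferon-inducible proteins, most with a domain that binds DNA, and Aim2, the DNA sensor of an inflammasome, belongs to the same family. The Ifi200 cluster is known to differ in gene content and in expression between inbred mouse strains. The rest of the stretch is a mixture of housekeeping, metabolic and signalling genes.

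The authors' deposited table called 15 of the 79 members (19%), 10 higher and 5 lower in the knockout. Over all tested rows the same table called 7.54% (4.2% higher and 3.35% lower), and on the rest of chromosome 1 it called 36 of 617 rows (5.83%). Of the 79 members 12 were called and also differed by at least 1.5-fold or were listed at 0 in 1 genotype. The same held for 452 of all 11478 tested rows (3.94%), of which 866 were called. The calls lay far from the targeted gene. The called member nearest to Tmem63a was Ifi205, which starts 6.93 Mb before it, and the farthest was Uhmk1, at 10.7 Mb. After Ifi205 no member starts for 1.59 Mb. All 15 calls are among the 53 members before that gap, and of the 26 members beyond it Cuffdiff called 0, with 3 at an unadjusted p under 0.05. Since Ifi205 is the last called member, the 0 calls beyond it were fixed by where this line was drawn. Per interval of 1 Mb, 2 of 9 members were called from 170 Mb, 5 of 21 from 171 Mb, 4 of 15 from 172 Mb, 3 of 7 from 173 Mb and the single member from 174 Mb. The median log2 fold change of the members was -0.00022 (knockout over wild type, 78 members with a value in both genotypes), beside -0.03 over all tested rows, with 39 values above and 40 below equality. The median size of the fold change was 0.27 on the log2 scale for the members, 0.18 over all tested rows and 0.18 on the rest of chromosome 1. These sets were not matched for level. Among the members the median size was 0.45 under 2 FPKM and 0.21 from 5 to 20 FPKM.

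**Figure D1:**
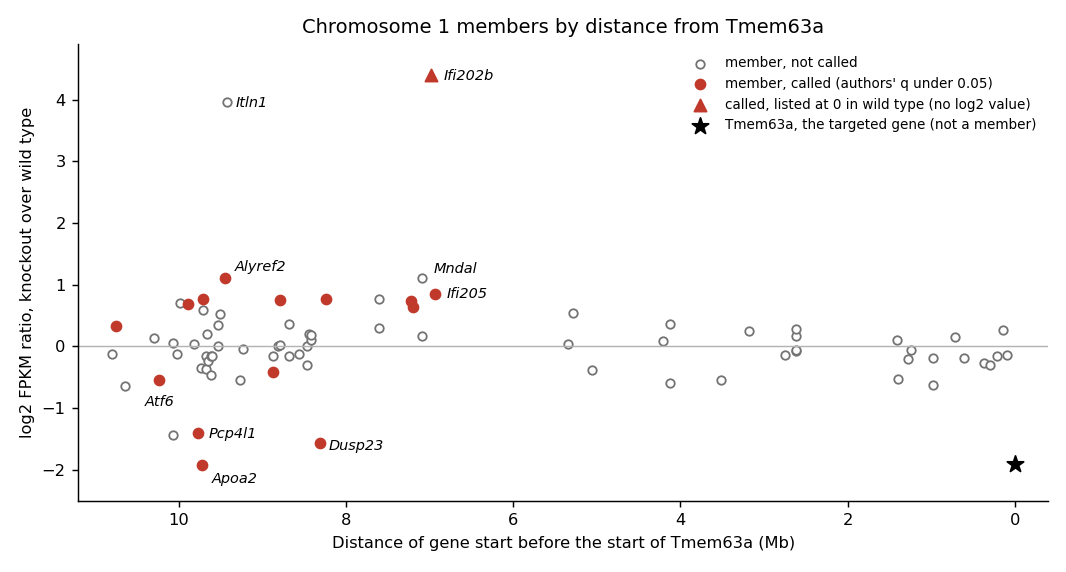
Each point is 1 member, placed by the distance of its start before the start of Tmem63a (x axis, Mb) and by its log2 FPKM ratio of knockout over wild type (y axis). Filled points are called, open points are not, the triangle is Ifi202b (listed at 0 in wild type, drawn at an arbitrary height) and the star is Tmem63a; filled points lie between 6.93 and 10.7 Mb.

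The ends of the stretch fell between ordinary genes. Just inside the limit farthest from Tmem63a were Uap1, an enzyme gene of amino sugar synthesis (21.4 FPKM in the knockout against 23.4 FPKM in controls), and the kinase gene Uhmk1. Just outside it were Ddr2, a collagen receptor gene (2.82 against 2.56 FPKM), and Rgs4 (1.11 against 0.772 FPKM). On the side of the targeted gene, H3f3a, which encodes a histone H3 variant (16.9 against 14.0 FPKM), and Sde2 (3.78 against 4.17 FPKM) were the last inside. Lefty1 (1.14 against 1.01 FPKM) lay outside. Tmem63a itself (chr1:180942344-180975112) stood at 4.91 FPKM in the knockout against 18.3 FPKM in controls, and was called; of the other genes of this paragraph only Uhmk1 was.

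The 3 measured Fc receptor genes had higher values in the knockout, by similar factors. Fcgr3 (ENSMUSG00000059498, chr1:171051174-171064935) rose from 1.36 to 2.18 FPKM (1.61-fold, q of 0.00723, authors' deposited table). Fcgr2b (ENSMUSG00000026656, chr1:170958617-170977746) had 1.30 FPKM in wild type and 2.13 FPKM in the knockout, with no call (log2 fold change 0.71, q of 0.0779, authors' deposited table). Fcer1g (ENSMUSG00000058715, chr1:171229572-171234365) was the most abundant of them, at 3.83 FPKM in wild type and 5.80 FPKM in the knockout, also without a call (log2 fold change 0.60, with the same q). Summed, the 3 genes stood at 10.1 FPKM in the knockout against 6.50 FPKM in controls. The other 4 names of the list (Fcrla, Fcrlb, Fcgr4 and Fcer1a) were not analysed here.

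The activating and the inhibitory receptor genes are near copies over part of their coding sequence, which bears on how single reads of 50 bases can be divided between them. In the GENCODE M21 transcripts, 9.58% of the 50-base windows of Fcgr3 also occurred in Fcgr2b and in no other gene, whereas Fcer1g shared none of its windows. The longest run of coding bases that both genes hold is 129 bases. It spans parts of 2 exons in each gene (chr1:170966674-170968081 in Fcgr2b and chr1:171054167-171057792 in Fcgr3, minus strand, introns left out) and is printed in lower case because it is the same in both:
Fcgr2b and Fcgr3: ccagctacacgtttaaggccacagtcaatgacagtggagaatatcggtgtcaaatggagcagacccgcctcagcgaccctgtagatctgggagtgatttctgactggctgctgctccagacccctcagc
A read that falls whole within this run has the same sequence from either gene. How the authors' counting treats such reads was not stated in the labels.

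All 6 measured Ifi200 genes had higher values in the knockout, and the authors' deposited table called 4 of them. Ifi202b (ENSMUSG00000026535, chr1:173962568-173982744), which encodes a family member that lacks the pyrin domain and opposes Aim2, was listed at 0 in wild type and stood at 1.53 FPKM in the knockout (q of 0.00152, authors' deposited table). No fold is given for it, since a listed 0 can be a failed estimate. It was the only member listed at 0 in either genotype. Ifi205 (chr1:174011998-174031810) rose from 0.769 to 1.38 FPKM (1.79-fold), AI607873 (chr1:173723430-173741809) from 0.695 to 1.16 FPKM (1.67-fold), and Ifi204 (chr1:173747293-173766943), a relative of the human DNA sensor gene IFI16, from 0.990 to 1.54 FPKM (1.55-fold). Their q-values in the authors' deposited table were 0.00404, 0.00152 and 0.0107. Levels of all 4 called genes stayed under 2 FPKM. Every row of the table had to exceed 1 FPKM in at least 1 genotype to be listed. In wild type all 4 lay under that limit and could be listed only through the knockout. Their direction was therefore fixed by the limit. Of the 6 genes only Mndal and Ifi203 lay above it in both genotypes.

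The remaining pair of Ifi200 members share 1 interval (chr1:173857220-173942672) and differed from each other. Mndal had the highest level of the cluster, with 6.003 FPKM in the knockout against 2.79 FPKM in controls (2.15-fold), and was not called (q of 0.0958, authors' deposited table). Ifi203 had 1.96 against 1.74 FPKM (log2 fold change 0.18, q = 0.820 in the same table). Where an interval is shared, reads of its genes could be divided between them, so the split between Mndal and Ifi203 is uncertain. The remaining 16 names of the Ifi200 list, Aim2 among them, were not analysed here under those names. Among these names, Ifi207 is the GENCODE M21 name of the gene listed as AI607873, described above.

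**Figure D2:**
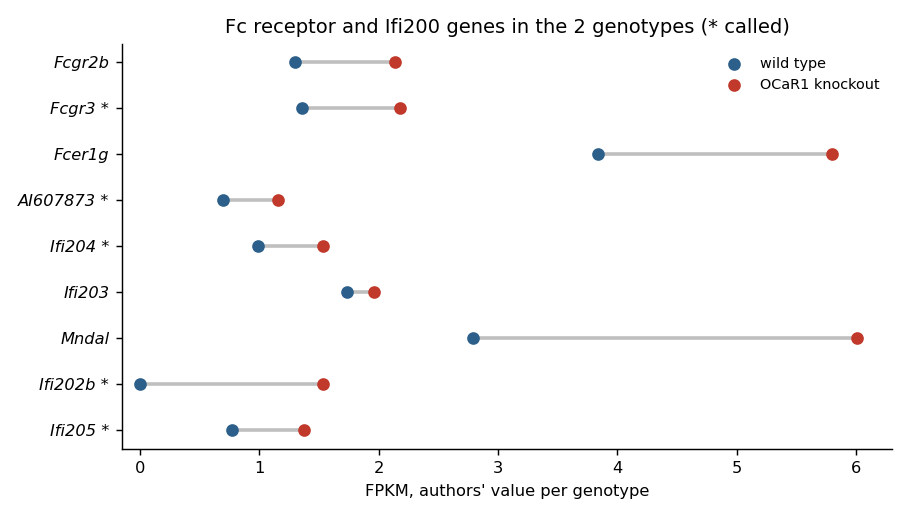
FPKM (x axis, the authors' value per genotype) of the 3 Fc receptor and 6 Ifi200 members, in order of position from top to bottom; blue points are wild type, red points the knockout, and a star marks called genes. Every red point lies to the right of its blue point, and the blue point of Ifi202b lies at 0. For the called Ifi200 genes the listing limit fixed this order.

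Ifi202b differed from the rest of its cluster in the sequence it shares. Of its 1648 windows of 50 bases, 0 occurred in the transcripts of any other GENCODE M21 gene. Ifi204 shared 20.02% of its windows with other genes, Mndal 19.6%, Ifi205 18.6%, Ifi203 12.4% and AI607873 7.29%. For Ifi204, Mndal and Ifi205 the gene sharing most was Ifi211, a family member that was not analysed here. The longest coding run common to Mndal and Ifi205 is 182 bases, in 1 exon of each (chr1:173862692-173862873 and chr1:174017465-174017646, minus strand), and it is shown because a read of 50 bases from it could belong to either gene:
Mndal and Ifi205: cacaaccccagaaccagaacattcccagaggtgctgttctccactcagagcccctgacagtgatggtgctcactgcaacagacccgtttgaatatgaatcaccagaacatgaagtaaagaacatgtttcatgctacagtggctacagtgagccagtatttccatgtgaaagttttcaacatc
The levels of Mndal, Ifi203, Ifi204 and Ifi205 are to be read with this limit, and the level of Ifi202b is free of it as far as this annotation goes.

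**Figure D3:**
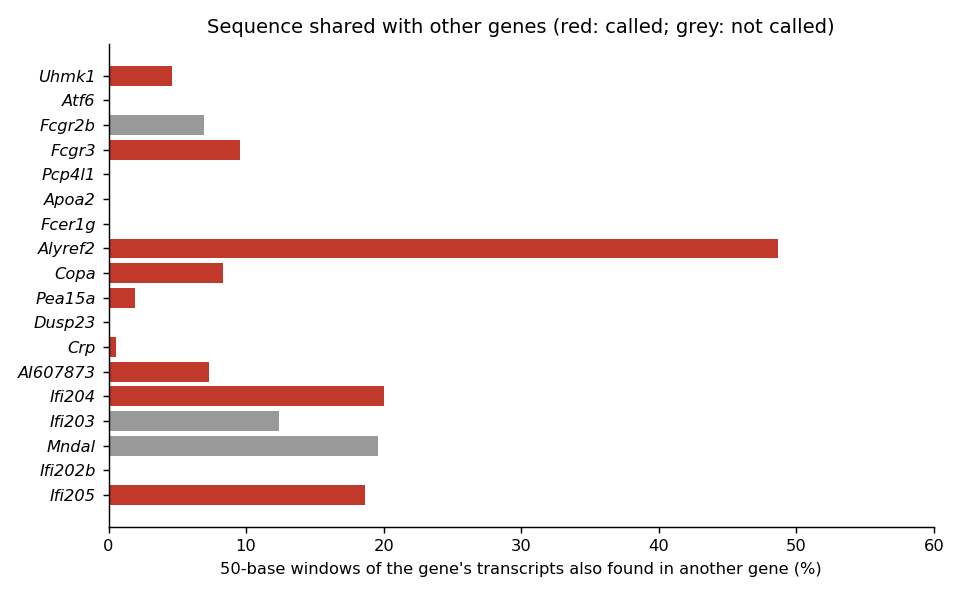
Bars give the percentage of each gene's 50-base transcript windows (x axis) that also occur in transcripts of another GENCODE M21 gene, for 14 called members (red) and the Fc receptor and Ifi200 members that were not called (grey), in order of position. Alyref2 has the longest bar (48.7%); Atf6, Pcp4l1, Apoa2, Fcer1g, Dusp23 and Ifi202b have none.

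Promoter sequence of 4 of the 6 Ifi200 members (RefSeq, GRCm38.p6) was found in the reference table under the names used here. It is shown because their values were all higher in the knockout, a direction that the listing limit fixed for Ifi202b and Ifi205. Only 1 window is printed per gene. The windows are the 250 bases before the annotated start, 5′ to 3′ on the minus strand, where these genes are encoded. Capitals mark GAAANNGAAA on either strand (TTTCNNTTTC when read on the other strand), the core of the interferon-stimulated response element:
Ifi202b (chr1:173982845-173983094): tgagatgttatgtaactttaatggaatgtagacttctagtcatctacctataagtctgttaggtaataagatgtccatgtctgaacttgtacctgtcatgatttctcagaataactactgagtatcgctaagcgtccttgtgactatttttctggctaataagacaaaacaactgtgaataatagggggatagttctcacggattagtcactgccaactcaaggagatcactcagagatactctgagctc
Ifi205 (chr1:174031756-174032005): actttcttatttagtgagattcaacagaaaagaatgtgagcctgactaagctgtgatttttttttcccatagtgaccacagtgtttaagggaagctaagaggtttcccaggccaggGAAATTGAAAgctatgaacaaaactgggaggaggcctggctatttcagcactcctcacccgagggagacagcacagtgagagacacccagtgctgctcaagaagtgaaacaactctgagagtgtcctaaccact
Ifi203 (chr1:173942493-173942742): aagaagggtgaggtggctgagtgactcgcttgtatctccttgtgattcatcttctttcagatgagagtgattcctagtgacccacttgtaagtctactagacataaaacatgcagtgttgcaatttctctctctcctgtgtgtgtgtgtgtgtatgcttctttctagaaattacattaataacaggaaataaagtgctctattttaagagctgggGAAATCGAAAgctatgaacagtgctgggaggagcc
Mndal (chr1:173880188-173880437): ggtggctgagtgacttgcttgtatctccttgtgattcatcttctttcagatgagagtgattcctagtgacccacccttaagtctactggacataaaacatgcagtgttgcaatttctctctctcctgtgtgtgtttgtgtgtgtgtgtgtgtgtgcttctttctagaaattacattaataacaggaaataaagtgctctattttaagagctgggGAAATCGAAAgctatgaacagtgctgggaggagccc
The Ifi203 and Mndal windows share an unbroken run of 96 bases, and the letters GAAATCGAAA stand in both, at 35 and 36 bases before the start. Ifi205 holds GAAATTGAAA farther upstream, and a second match of its window, on the other strand, lies after the start. The Ifi202b window has no match; its longest run in common with any of the other windows is 9 bases. Ifi203 and Mndal each have a further window, at another start, that is not printed. That of Ifi203 (chr1:173942673-173942922) has no match, and that of Mndal (chr1:173879959-173880208) holds TTTCTCTTTC. With all annotated starts and windows of 300 bases, 3 of these 4 genes had a match in at least 1 window (4 of 6 windows). Of all 32851 promoter windows of that length, 3.44% held a match, and 1079 of 27025 genes had a match in at least 1 window. A match describes letters only and is no evidence of binding.

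Markers of several cell types were higher in the same knockout group, those of myeloid cells among them. Of 19 names on the macrophage and monocyte list 16 were tested, all 16 had higher values in the knockout, 12 were called higher in the authors' deposited table, and 0 were listed at 0. Their summed level was 141 FPKM in the knockout against 80.0 FPKM in controls, and the median log2 fold change was 0.80, beside 0.68 for the 3 Fc receptor genes and 0.74 for the 5 Ifi200 genes with a ratio. Lyz2, a lysozyme gene, rose from 18.7 to 44.4 FPKM, and the pore-forming Mpeg1 from 0.646 to 1.62 FPKM. In wild type Mpeg1, Emr1 (0.762 FPKM), Itgam (0.735 FPKM) and Ms4a7 (0.913 FPKM) lay under the listing limit of 1 FPKM. Such genes could be listed only through the knockout, so their direction was fixed by that limit. The same holds for Cd79b of the B cell names (0.859 FPKM) and Retn of the fat cell names (0.963 FPKM). It also holds for Ifi205, AI607873 and Ifi204 among the 5 Ifi200 genes with a ratio. Of 6 neutrophil names 2 were tested, S100a8 (3.09 against 1.83 FPKM) and S100a9 (2.05 against 1.23 FPKM), without a call. Of 7 B and plasma cell names 2 were tested (summed 6.28 against 2.52 FPKM); Igj, the joining chain gene, was called higher. The single tested names of the T and natural killer cell list (Tcf7, 0.821 against 1.61 FPKM) and of the mast cell list (Kit, 3.17 against 1.99 FPKM) were not called. Markers of cells outside the immune system were also higher. Of the fat cell names 6 of 6 were tested and 5 were called higher (median log2 fold change 1.23, summed level 189 against 85.4 FPKM), and of the islet names 6 of 7 were called higher (median 0.64, summed level 4066 against 2534 FPKM). Of the endothelial names 2 of 5 were called higher (median 0.37), and of the red cell names 2 of 5 tested (median 0.26). The part of any of these cells in the Fc receptor and Ifi200 values was not tested.

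**Figure D4:**
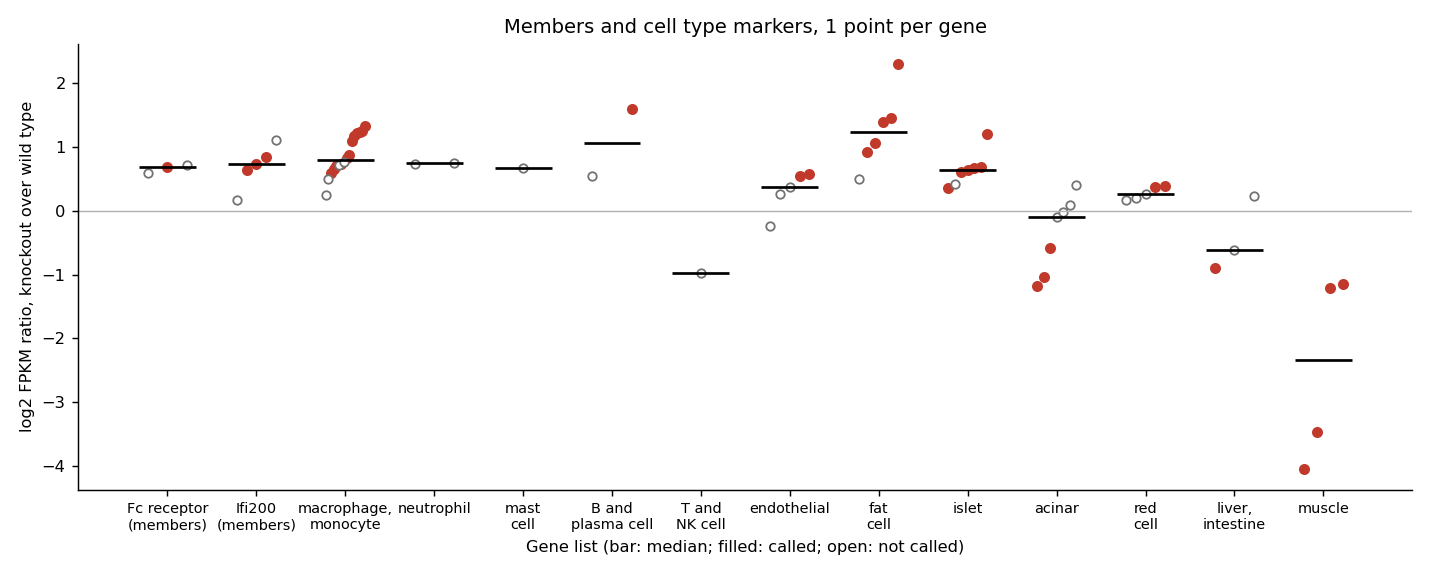
Log2 FPKM ratio of knockout over wild type (y axis), 1 point per gene, for the Fc receptor members, the 5 Ifi200 members with a ratio and 12 lists of cell type markers (x axis). Bars are medians, filled points are called and open points are not. The Fc receptor, Ifi200 and macrophage medians are 0.68, 0.74 and 0.80, the fat cell median is 1.23 and the muscle median is -2.34. Some genes, such as Actg2, Cnn1, Ifi204, Ifi205 and AI607873, could be listed only through their higher genotype, so their direction was fixed.

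Genes that work with these clusters but lie outside the stretch held 4 calls. Of 15 names for Fc receptor signalling 6 were tested, 2 were called higher in the authors' deposited table and 0 lower (median log2 fold change 0.57). Tyrobp, an adaptor of myeloid receptors, rose from 4.59 to 8.22 FPKM and Fyb, an immune cell adaptor gene, from 0.406 to 1.19 FPKM (its interval holds 1 more row). Fyb, too, could be listed only through the knockout. Fcgrt, the neonatal Fc receptor gene, had 7.01 (knockout) against 5.48 FPKM (wild type) without a call. Of 28 names for interferon response and DNA sensing 16 were tested, and 1 was called higher and 1 lower (median 0.22). Of these 16, 11 had the higher value in the knockout and 5 the lower. An unadjusted p under 0.05 in the authors' deposited table was found for 5, the called genes included. The interferon-induced GTPase gene Gbp2 rose from 1.16 to 1.80 FPKM, while Pycard, which encodes the inflammasome adaptor, fell from 4.31 to 2.76 FPKM. Gsdmd, the pore-forming target of the inflammasome, had 1.52 against 1.11 FPKM without a call. The interferon-induced Isg15 had 2.12 FPKM in the knockout against 1.67 FPKM in controls, and Ifi27 131 against 132 FPKM, neither of them called.

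Outside both clusters, the following 4 members also rose. Alyref2 (chr1:171500568-171504750), a paralog of the RNA export factor gene Alyref, rose from 2.35 to 5.05 FPKM (2.15-fold), but 47.8% of its 50-base windows also occurred in the overlapping antisense gene B930036N10Rik, so its level is uncertain. Pea15a, which encodes a phosphoprotein with a death effector domain, rose from 4.903 to 8.30 FPKM and has the same interval as Dcaf8 (27.0 against 26.6 FPKM, not called), with which it had 1.90% of its windows in common. Crp, the gene of the pentraxin C-reactive protein, rose from 0.586 to 1.00 FPKM, at the limit of the table. Crp could be listed only through the knockout, so its direction was fixed by that limit. Uhmk1, a kinase gene at the end of the stretch farthest from Tmem63a, is the remaining one and rose from 1.98 to 2.49 FPKM (1.26-fold, q of 0.0467, authors' deposited table).

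The 5 members that fell included the largest changes among the called members with a ratio. Apoa2 (ENSMUSG00000005681, chr1:171225054-171226379), an apolipoprotein gene of high-density lipoprotein, fell from 1.13 to 0.300 FPKM (3.78-fold lower, q of 0.01001, authors' deposited table). Dusp23 (chr1:172630764-172632962), a small phosphatase gene, fell from 4.98 to 1.69 FPKM (2.95-fold lower) and Pcp4l1 (chr1:171173262-171196268) from 1.10 to 0.418 FPKM (2.64-fold lower). None of these 3 genes shared a 50-base window with another gene, and none shares its interval. Apoa2 and Pcp4l1, however, lay under 1 FPKM in the knockout and could be listed only through wild type. Their direction was therefore fixed by that limit, and their ratios rest on values near it. A pair of abundant genes of the secretory pathway fell by less: Atf6, a stress sensor of the endoplasmic reticulum, from 12.5 to 8.52 FPKM (1.47-fold lower) and Copa, a subunit gene of the vesicle coat COPI, from 50.5 to 38.1 FPKM (1.33-fold lower). Copa shares its interval with Ncstn, a gamma-secretase subunit gene (8.93 against 9.92 FPKM, not called).

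Apoa2 is best known from liver and intestine, and genes of those organs were looked up beside it. Of 9 names 3 were tested: Alb, the albumin gene, fell from 1.39 to 0.746 FPKM, Vil1 had 1.36 FPKM in the knockout against 2.07 FPKM in controls, and Ttr had 34.7 against 29.6 FPKM, the last pair not called. Their summed level, 36.8 against 33.0 FPKM, was mostly Ttr and does not show the lower values of Alb and Vil1. Ttr and Vil1 share their intervals with other rows, and 0 of the tested names were listed at 0. Of 7 smooth and skeletal muscle names 4 were tested (Actg2, Cnn1, Myh11 and Des), and all 4 were called lower in the knockout (summed 5.26 against 27.2 FPKM). Alb, Actg2 (0.878 FPKM) and Cnn1 (0.307 FPKM) lay under 1 FPKM in the knockout and could be listed only through wild type. Their direction was therefore fixed by that limit. Myh11 (2.38 against 5.26 FPKM) and Des (1.70 against 3.92 FPKM) lay above it in both genotypes. The part of either tissue in the members that fell was not tested.

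**Figure D5:**
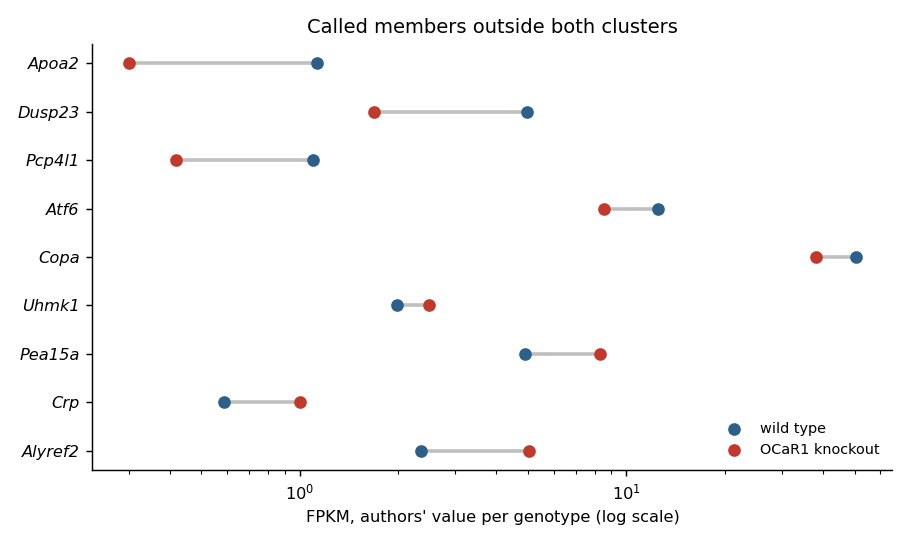
FPKM on a log scale (x axis) of 9 called members outside the Fc receptor and Ifi200 clusters, ordered from the largest fall to the largest rise; blue points are wild type and red points the knockout. Apoa2, Dusp23, Pcp4l1, Atf6 and Copa have the red point on the left, and the other 4 have it on the right.

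Of the 64 members without a call, 10 had an unadjusted p under 0.05 in the authors' deposited table. Besides Fcgr2b, Fcer1g and Mndal these were F11r, a tight junction adhesion gene (33.7 FPKM in the knockout against 23.3 FPKM in controls), the ubiquitin-like conjugation gene Ufc1 (61.7 against 73.0 FPKM), Nit1 (7.84 against 10.8 FPKM), Adss, an adenine nucleotide synthesis gene (9.21 against 7.70 FPKM), Sdccag8 (1.06 against 1.61 FPKM), Cnst (1.44 against 2.09 FPKM) and the noncoding Gm9929 (0.453 against 1.23 FPKM). The widest ratio of the whole stretch had no call: Itln1, an intestinal lectin gene, stood at 1.26 FPKM in the knockout against 0.0808 FPKM in controls (q of 0.651, authors' deposited table). Uhmk1, by contrast, was called at 1.26-fold. Itln1 in wild type and Gm9929 in the knockout lay under 1 FPKM, so the listing limit fixed their direction.

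The other members were grouped by role; over all tested rows 7.54% were called, and in groups this small nothing is read from a count. Among metabolic and mitochondrial members, Sdhc, a subunit gene of complex II, had 56.9 (knockout) against 55.3 FPKM (wild type), and Fh1, the fumarase gene, 25.4 against 24.6 FPKM. Of 8 secretory pathway and stress members, Atf6 and Copa were called, both lower (list median -0.16). Of 13 chromatin, RNA and cell division members 0 were called by Cuffdiff, with 1, Sdccag8, at an unadjusted p under 0.05 (median -0.14). The repressor gene Zbtb18 had 25.7 against 37.4 FPKM (q of 0.338, authors' deposited table) and Parp1, a DNA repair enzyme gene, 12.9 against 15.6 FPKM. Of 5 signalling kinase and channel members 0 were called, with 0 at an unadjusted p under 0.05. The SLAM family of immune receptors had 1 measured member, Slamf9 (1.33 against 1.32 FPKM), and the dual-specificity phosphatase gene Dusp12, whose relative Dusp23 fell, had 9.90 against 9.53 FPKM. Lipid and acute phase genes were Apoa2 and Crp, called in opposite directions that the listing limit fixed for each. The corresponding median over all tested rows was -0.03.

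On the side nearest to Tmem63a, the 26 members beyond the gap that follows Ifi205 had log2 fold changes from -0.62 (Adck3, a gene of coenzyme Q synthesis, 24.8 FPKM in the knockout against 38.1 FPKM in controls, q of 0.316, authors' deposited table) to 0.54 (the opsin gene Opn3, 1.04 against 0.719 FPKM). Their median was -0.11, with 10 values above and 16 below equality, and the median size of their log2 fold change was 0.20, beside 0.18 over all tested rows. The 7 members that start from 180 Mb, closest to the targeted gene, ran from -0.30 (Lin9) to 0.27 (H3f3a), among them Psen2, a presenilin gene (20.5 against 18.5 FPKM), Itpkb (2.44 against 2.78 FPKM) and Acbd3 (6.23 against 6.97 FPKM). In a stretch of the same length that begins where the members end, 2 of 47 tested rows were called, 1 of them Tmem63a. In the same length below 170 Mb, 4 of 56 were called.

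Members were mostly low or moderate in level, and 29 of them share an interval with another row. By the larger of their 2 values, 25 members lay under 2 FPKM (7 called), 12 from 2 to 5 FPKM (3 called), 27 from 5 to 20 FPKM (3 called) and 15 at 20 FPKM or more (2 called). The most abundant was Gm28062, with 74.8 FPKM in the knockout against 79.0 FPKM in controls. Its interval also holds Hnrnpu, Cox20 and the antisense gene Gm16586. The use of strand in counting is not given, so reads of such overlapping genes cannot be assigned with certainty. The 29 members fall in 14 shared intervals, in 5 of which the members' values differ in sign; Dusp12 (log2 fold change 0.06) and Gm9929 (-1.44) are an example. Of the called members, Copa shares its interval with Ncstn, and Pea15a shares another with Dcaf8. Over the 77 members found in GENCODE M21, the median share of 50-base windows held by another gene was 1.74%, 17 members shared none and 22 shared over 10%. Among the 15 called members 5 shared none and 3 (Alyref2, Ifi204 and Ifi205) shared over 10%.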

How the data were processed

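Pancreas RNA of 3 wild-type and 3 OCaR1-/- mice was sequenced as single reads of 50 bases, per the labels' protocols. STAR 2.5.1b, Cufflinks 2.2.1 and Cuffdiff are named in the submitters' processing notes, with no settings. Per the file headers, the authors deposited 1 FPKM value per genotype and the p-value and q-value of their Cuffdiff comparison; columns of single samples numbered 0. Planned fits per library (limma, each replicate left out, the replicate number as a block) could not be made, and no test was added. Log2 ratios were computed as knockout over wild type without a pseudocount where both values reached 0.01 FPKM. The deposited fold changes, partly spreadsheet errors, were not used. Starts were shifted to count from 1. Annotation came from GENCODE M21, with 77 members matched and 54 at the same start. Windows of 50 bases were compared on both strands, and the adjustment and window scripts were tested on simulated data. Named genes were Tmem63a, the Fc receptor and Ifi200 members, the called members, members that share an interval with a called one, the edges of the stretch, the most abundant members and up to 3 genes of each list by smallest p; other genes are examples chosen after their values were seen. Members and lists were chosen with earlier results of these data known. The results of some genes are not reported here, though counts over the table include them. Python 3.11.15 and pandas 2.3.3 were used.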

Additional observations from a re-analysis of the deposited data

How the results depend on the processing

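Of the 15 calls among the members, 9 (6 higher and 3 lower) were left at q under 0.01. With at least 5 FPKM in either genotype 5 calls were left among 42 members (3 higher and 2 lower); the Ifi200 and Fcgr3 calls all lie below that level. Of members that start beyond the gap after Ifi205 0 were called, and all 15 start before it. This split follows from the calls themselves, since Ifi205 is the last called member. The count was 15 with the p-values adjusted again over all tested rows, 13 with only intervals of 1 row and 12 with at least 1.5-fold in addition (452 rows, 3.94%, in the whole table). The median log2 fold change was -0.051 with at least 5 FPKM, 0.034 before that gap and -0.11 beyond it; it was -0.00017 with a pseudocount of 0.5 and -0.00018 with only intervals of 1 row. With that pseudocount all 32 named members with a ratio kept their direction, while sizes shrank for low genes (Apoa2 to -1.03, Pcp4l1 to -0.80). No paired analysis was possible because the table holds 1 value per genotype, and leaving out each replicate was not run for the same reason. Depth is unknown, so no detection limit can be given for values listed at 0.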
